A study of Mus musculus with 16 samples.

Results

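The malate-aspartate shuttle is described here by 7 genes of the 14474 in the count table, found by their symbols. They are the aspartate-glutamate carriers *Slc25a12* and *Slc25a13*, the oxoglutarate-malate carrier *Slc25a11*, the aspartate aminotransferases *Got1* and *Got2*, and the malate dehydrogenases *Mdh1* and *Mdh2*. The set was chosen by its pathway after *Slc25a13* had stood out between the lines in vehicle-treated cells, so that comparison is given for the 7 genes as a description, with no test. Immortalized mouse keratinocytes without integrin α3 (MKα3−) were compared with the same line after human α3 was put back (MKα3+), both grown on collagen-coated dishes in low-calcium medium. Each line received LN332 (laminin-332, the basement membrane ligand of integrin α3β1) at 0.02 mg/mL or an equal volume of vehicle for 16 to 24 h. RNA was sequenced from 4 replicates of each of the 4 groups. Each genotype is 1 line, so the return of α3 and any other difference between the 2 lines cannot be told apart. Nothing says that the replicates were separate cultures, so p-values measure the spread between these samples, which may be technical. The study calls its in vitro data points experimental replicates.

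The shuttle moves the reducing power of cytosolic NADH into mitochondria, whose inner membrane NADH does not cross. In the cytosol MDH1 uses NADH to make malate from oxaloacetate and GOT1 interconverts oxaloacetate and aspartate. In the matrix MDH2 and GOT2 run the same reactions, the carrier SLC25A11 exchanges malate for 2-oxoglutarate, and SLC25A12 (aralar) or SLC25A13 (citrin) carries aspartate out in exchange for glutamate. SLC25A12 and SLC25A13 are calcium-regulated, and their step also supplies the cytosol with aspartate for asparagine, arginine and nucleotide synthesis.

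The mouse *Itga3* count does not check the labels, because the restored α3 is human. Its level (CPM, read counts scaled to the TMM-normalized library size) with vehicle was 259 ± 42.4 without and 277 ± 46.8 with the human subunit (SD, n = 4). Library totals lay between 21735708 and 29338370 counts. Over the 16 libraries the 10 keratinocyte marker genes summed to between 9501 and 20869 CPM, most of it from *Krt5* and *Krt14*. The median log2 fold change of the 10 between LN332-treated MKα3+ and MKα3− cells was -0.64. Of these genes *Krt5*, *Trp63* and *Perp* were lower in LN332-treated MKα3+ than MKα3− cells, by 0.80, 0.91 and 0.78 on the log2 scale, past the threshold used for genes below. *Krt15* averaged 3.48 CPM in LN332-treated MKα3− and 0.809 CPM in LN332-treated MKα3+ cells, without overlap. Its difference (log2 fold change -1.96, SE 0.77) was not past that threshold. The 4 measured of 6 leukocyte markers (*Ptprc*, *Lyz2*, *Itgam* and *Csf1r*) summed to 12.8 to 49.1 CPM in MKα3− and 76.9 to 313 CPM in MKα3+ libraries with vehicle, and to 23.7 to 74.6 and 37.0 to 329 CPM with LN332, where the ranges overlapped and *Csf1r* was called higher (0.89). Sums over all 16 libraries were 11.6 to 40.7 CPM for the 5 measured of 8 fibroblast markers, 4.70 to 10.6 CPM for the 2 measured of 6 melanocyte markers, of which *Pmel* was called, and 3.33 to 6.45 CPM for the 4 endothelial markers. The part of these markers in the differences between the lines was not tested, and in bulk RNA fewer cells of a type and less RNA per cell cannot be told apart.

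*Slc25a13* (Entrez 50799) lies on the minus strand of chromosome 6, 6041218 to 6217173 in mm10, and its RefSeq-linked transcripts hold 3121 exonic bases. *Slc25a12* (Entrez 78830) lies on the minus strand of chromosome 2, 71271063 to 71367749, with 6351 exonic bases. The bases before the start of both genes are shown because the libraries of these 2 carriers did not overlap between the lines. *Slc25a12* was past the threshold used below only in the untested vehicle comparison and under some alternative settings. They are the 250 bases before the start used by the RefSeq promoter table in GRCm38.p6, on the minus strand, 5′ to 3′, at chr6:6217174-6217423 for *Slc25a13* and chr2:71367756-71368005 for *Slc25a12*. The RefSeq gene records reach further upstream, to 6217304 for *Slc25a13* and 71367781 for *Slc25a12*, so each window begins upstream of the record and ends inside it. Capitals mark CACGTG and CCAAT, on either strand.
Slc25a13: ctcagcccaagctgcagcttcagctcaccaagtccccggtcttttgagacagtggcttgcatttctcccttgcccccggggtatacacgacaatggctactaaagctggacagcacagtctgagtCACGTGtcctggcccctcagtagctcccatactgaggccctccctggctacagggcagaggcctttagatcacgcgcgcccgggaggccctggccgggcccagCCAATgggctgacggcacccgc
Slc25a12: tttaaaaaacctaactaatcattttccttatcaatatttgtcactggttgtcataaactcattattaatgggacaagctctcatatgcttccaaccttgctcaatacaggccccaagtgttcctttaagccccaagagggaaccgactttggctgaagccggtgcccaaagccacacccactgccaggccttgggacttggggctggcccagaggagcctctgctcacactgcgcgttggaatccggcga

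The *Slc25a13* window held 1 CACGTG, beginning 125 bases before the start that the window uses, and 1 CCAAT, beginning 22 bases before it, which did not overlap. Both lie inside the longer RefSeq gene record. Of the 32851 RefSeq promoter windows of the same length, 6.02% held CACGTG and 33.8% held CCAAT. The *Slc25a12* window held neither. It also held none of GGGCGG (32.7% of windows), TGACGTCA (1.55%), GCGCNTGCGC (3.74%) and TATAAA (12.4%), and the same was true of *Slc25a13*. CpG numbers were 11 in the *Slc25a13* window and 6 in the *Slc25a12* window, against a median of 6 over all windows. Among the other members *Got1* held 5 CCAAT, *Mdh1* 2 and *Slc25a11* 1. These matches describe letters and not binding.

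*Slc25a13* mRNA was nearly absent from MKα3+ cells with either treatment. In vehicle-treated MKα3− cells the 4 libraries held 55.9, 56.9, 58.6 and 51.6 CPM of *Slc25a13*. In vehicle-treated MKα3+ cells they held 0.291, 0.561, 0.392 and 0.396 CPM, which rest on 8 to 14 counts per library. All 4 MKα3+ libraries therefore lay far below all 4 MKα3− libraries, a log2 fold change of -7.06 (SE 0.38). This is the readout that led to the choice of the genes, so the difference between the lines with vehicle is a description here and in the levels and shares below.

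In LN332-treated cells, whose libraries that choice did not use, *Slc25a13* had 34.4, 51.0, 56.1 and 48.5 CPM in MKα3− cells. The lines are the same as those behind the choice, and the fit took its spread from all libraries. The p-values below are therefore not an independent test of the difference between the lines. The LN332-treated MKα3+ libraries held 0.843, 0.528, 0.623 and 0.450 CPM (12 to 21 counts). The groups did not overlap, and the lowest MKα3− library was replicate 1. *Slc25a13* fell by 6.26 on the log2 scale in MKα3+ cells (SE 0.35, adjusted p = 1.08e-09 from limma-voom), which makes it 76.4-fold lower than in MKα3− cells. The exact two-sided permutation test of the 4 against 4 CPM values gave p = 0.0286, the smallest that this design allows. Over the other settings and with each library left out in turn the log2 fold change stayed between -6.44 and -6.13, except that the requirement of at least 10 counts in every library removed the gene.

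*Slc25a12*, the other aspartate-glutamate carrier, was highest in vehicle-treated MKα3− cells and lowest in LN332-treated MKα3+ cells. The vehicle-treated MKα3− libraries held 59.2, 48.8, 57.8 and 45.7 CPM, and the vehicle-treated MKα3+ libraries 36.6, 38.9, 30.5 and 33.7 CPM. These groups did not overlap (log2 fold change -0.60, SE 0.11, given as a description). With LN332 the levels were 35.3, 38.8, 42.0 and 31.2 CPM in MKα3− cells. They were 28.8, 29.8, 28.7 and 24.0 CPM in MKα3+ cells. The groups again did not overlap, and *Slc25a12* was 24.3% lower in MKα3+ cells. The difference was under the minimum of 0.5 used for a call (log2 fold change -0.41, SE 0.12, adjusted p = 0.0151 from limma-voom). Without LN332-treated MKα3+ replicate 4 the adjusted p was 0.0556.

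*Slc25a11* (Entrez 67863, chromosome 11, 70644196 to 70647479), which brings malate in against 2-oxoglutarate, was nearly level between the lines. In LN332-treated cells it had 99.95, 94.4, 96.1 and 123 CPM without α3 and 112, 101, 105 and 96.3 CPM with α3. The ranges overlapped, with MKα3− replicate 4 highest (log2 fold change 0.010, SE 0.10, adjusted p = 0.952 from limma-voom). In vehicle-treated cells it averaged 107 ± 11.9 CPM without α3 and 116 ± 9.33 CPM with it (SD, n = 4).

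**Figure D1:**
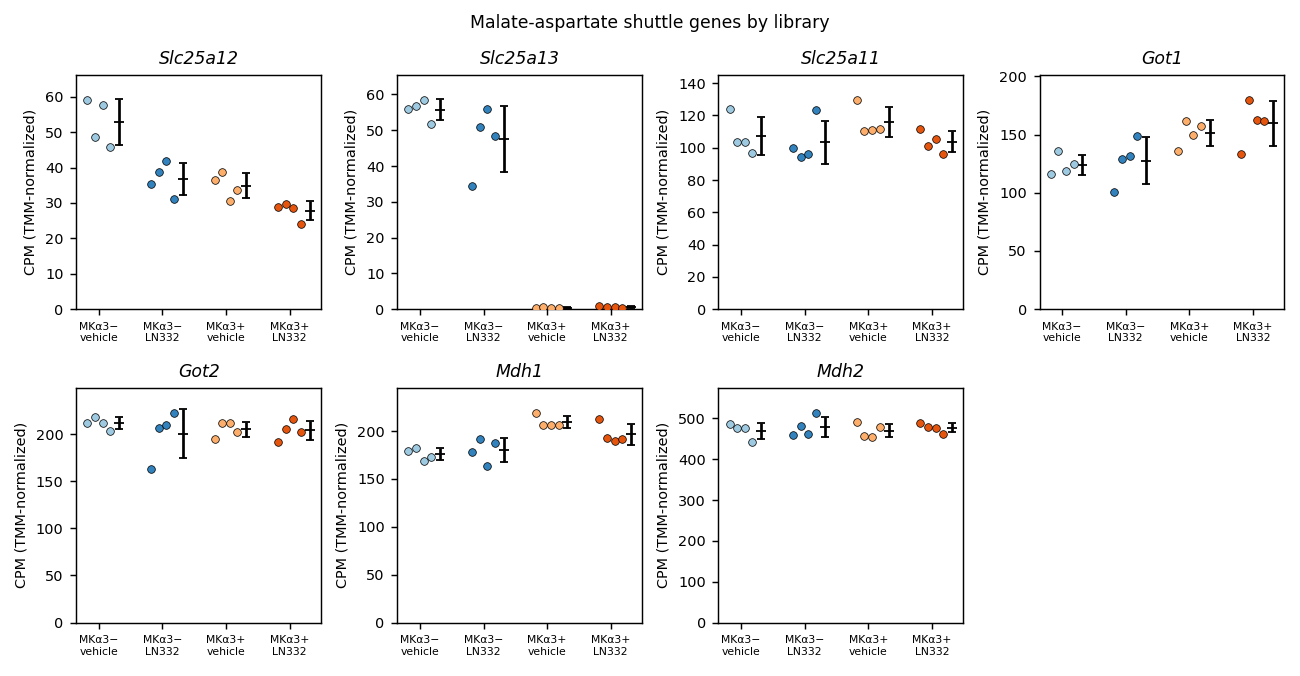
TMM-normalized CPM (vertical axes, from 0) of the 7 shuttle genes in the 16 libraries by group; points are libraries and the bar beside them is the mean ± SD (n = 4). *Slc25a13* lies between 34.4 and 58.6 CPM in MKα3− cells and at 0.843 CPM or less in MKα3+ cells, and the LN332-treated libraries of *Slc25a12* lie below the vehicle-treated ones within each line.

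The cytosolic aminotransferase *Got1* (Entrez 14718, chromosome 19, 43499752 to 43524605) had a higher mean in MKα3+ cells. Its LN332-treated libraries held 101, 129, 132 and 149 CPM in MKα3− and 134, 180, 163 and 162 CPM in MKα3+ cells. Only MKα3+ replicate 1 lay within the MKα3− range. *Got1* was 0.33 higher on the log2 scale (SE 0.11, adjusted p = 0.0372 from limma-voom), under the minimum for a call. The adjusted p of *Got1* lay between 0.0609 and 0.129 when LN332-treated MKα3− replicate 1 or 2, or LN332-treated MKα3+ replicate 2, 3 or 4, was left out. In vehicle-treated cells the means were 124 ± 8.74 and 151 ± 11.4 CPM (SD, n = 4), without overlap.

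The matrix enzyme *Got2* (Entrez 14719, chromosome 8, 95864134 to 95888547) stayed close to 200 CPM: its group means ran from 200.4 to 211 CPM. The LN332-treated libraries held 163, 207, 210 and 222 CPM in MKα3− and 192, 205, 216 and 202 CPM in MKα3+ cells. These ranges overlapped (log2 fold change 0.033, SE 0.090, adjusted p = 0.814 from limma-voom). *Got2* is uncertain in that it shares 379 exonic bases with *Gm45760* on the opposite strand and has a processed pseudogene, *Got2-ps1*.

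*Mdh1* (Entrez 17449, chromosome 11, 21556787 to 21572367), is the cytosolic malate dehydrogenase. In vehicle-treated cells the libraries held 180, 182, 168 and 173 CPM in MKα3− and 219, 207, 207 and 206 CPM in MKα3+ cells, without overlap (log2 fold change 0.25, SE 0.075, given as a description). With LN332 they held 178, 192, 164 and 187 CPM in MKα3− and 213, 193, 189 and 191 CPM in MKα3+ cells. There the ranges overlapped, and the difference did not pass the test (log2 fold change 0.13, SE 0.074, adjusted p = 0.205 from limma-voom).

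*Mdh2* (Entrez 17448, chromosome 5, 135778480 to 135790398), its matrix counterpart, was nearly level over the groups. Its group means were between 470 and 479 CPM, and the LN332-treated libraries spanned 461 to 513 CPM in MKα3− and 462 to 488 CPM in MKα3+ cells (log2 fold change -0.0054, SE 0.074, adjusted p = 0.965 from limma-voom).

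Counted together, 1 of the 7 genes, *Slc25a13*, was called between the lines in LN332-treated cells, where a call is an adjusted p under 0.05 (Benjamini-Hochberg over all genes) with an absolute log2 fold change over 0.5. Over all 14474 genes 20.6% were called in that comparison. The median log2 fold change of the 7 was 0.010, and that of all genes 0.0062. The 4 LN332-treated MKα3+ libraries did not overlap the 4 MKα3− libraries for 2 of the 7 genes, against 26.5% of all genes. In vehicle-treated cells, the comparison behind the choice of the set, 2 of the 7 (*Slc25a12* and *Slc25a13*) were past the same limits beside 18.5% of all genes. In LN332-treated cells neither count stood out from its background.

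**Figure D2:**
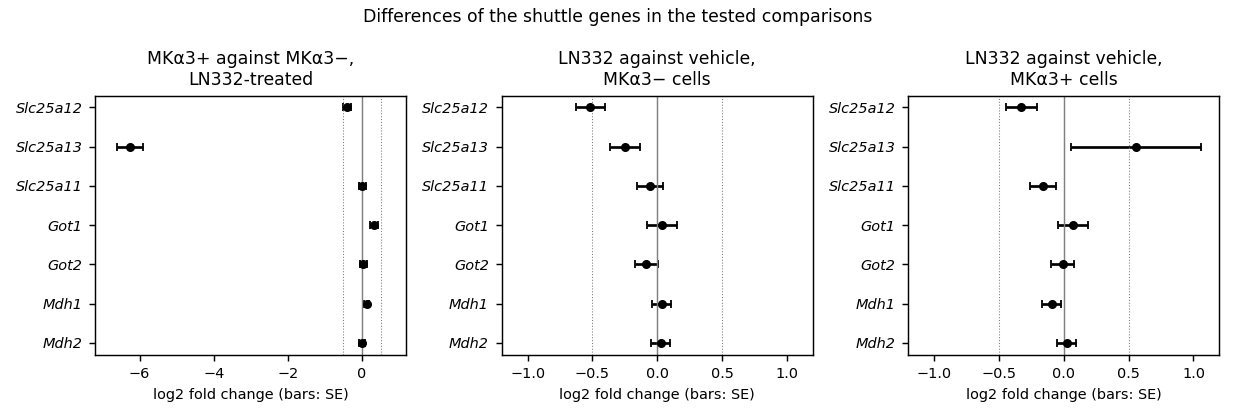
Log2 fold changes (horizontal axes, points) with their SE (bars) of the 7 shuttle genes between the lines with LN332 and for LN332 against vehicle in each line; dotted lines mark ±0.5 and the first axis is wider than the other two. *Slc25a13* stands at -6.26 between the lines, and *Slc25a12* is at -0.52 and -0.33 with LN332 in MKα3− and MKα3+ cells.

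For LN332 against vehicle none of the 7 genes was called in MKα3− cells (0.304% of all genes were, 35 higher and 9 lower, or 24 higher and 50 lower with library size alone as the scaling). The same held in MKα3+ cells (0.187% of all genes, 25 higher and 2 lower, or 2 higher and 1 lower with library size alone). These backgrounds of 44 and 27 genes are unstable: with 1 library left out they ran from 1 (without vehicle-treated MKα3− replicate 3) to 150 (without LN332-treated MKα3− replicate 1) in MKα3− cells and from 0 to 47 in MKα3+ cells. *Slc25a12* came nearest. Its 4 LN332-treated libraries all lay below its 4 vehicle-treated libraries in each line, the one member of the 7 without overlap in either comparison, where 4.95% of all genes in MKα3− cells and 9.66% in MKα3+ cells had none. Its mean was 30.4% lower with LN332 in MKα3− cells and 20.2% lower in MKα3+ cells. The exact two-sided permutation test gave p = 0.0286 in each line, among 21 such tests of single members. That is the smallest value that its 70 free arrangements allow. The test ignores the replicate numbers, which pair the samples in MKα3+ cells, so its p there leaves out the pairing.

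Across all genes the LN332 difference of *Slc25a12* did not pass in MKα3− cells (log2 fold change -0.52, SE 0.11, adjusted p = 0.0590 from limma-voom). It passed there with DESeq2 (adjusted p = 0.00308), and without LN332-treated MKα3− replicate 3 (log2 fold change -0.58, adjusted p = 0.0331 from limma-voom). Library size alone, at least 10 counts in every library, and a block on replicate number also gave a call in MKα3− cells. Whether *Slc25a12* is called there thus depends on the processing. For *Slc25a12* with α3 restored the value was -0.33 (SE 0.12, adjusted p = 0.334 from limma-voom). There the replicate numbers pair the samples, and blocking on that number gave an adjusted p of 0.0874 from limma-voom, while the calls over all genes went from 27 to 218. In the mean of both lines, a comparison added after these values were seen, *Slc25a12* stood at -0.42 (SE 0.083, adjusted p = 0.00943 from limma-voom), under the minimum for a call. No member was called in that mean, in which 1.35% of all genes were.

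*Slc25a13* showed no called response to LN332. In MKα3− cells vehicle-treated libraries averaged 55.8 ± 2.95 CPM and LN332-treated ones 47.5 ± 9.27 CPM (SD, n = 4), with overlapping libraries (log2 fold change -0.25, SE 0.12, adjusted p = 0.347 from limma-voom). The MKα3+ averages were 0.410 ± 0.112 and 0.611 ± 0.170 CPM (SD, n = 4), in the same order, and also overlapped. That difference (log2 fold change 0.56, SE 0.50, adjusted p = 0.850 from limma-voom) rests on 8 to 21 counts per library. For the other 5 members the LN332 log2 fold changes lay between -0.16 and 0.073.

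No member passed the test of a difference in LN332 response between the lines, and 0% of all genes were called in that difference (0 genes by limma-voom, by edgeR's quasi-likelihood test and by DESeq2, with 164 genes at an unadjusted p under 0.05). For *Slc25a12* the response in MKα3+ cells minus that in MKα3− cells was 0.19 on the log2 scale (SE 0.17, adjusted p = 0.99986 from limma-voom). For *Slc25a13* it was 0.81 (SE 0.52, adjusted p = 0.99986 from limma-voom).

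Levels of different genes are compared per kilobase of exon (RPKM). In vehicle-treated MKα3− cells the order was *Mdh2* at 323 ± 13.4 RPKM, *Got2* at 83.5 ± 2.51, *Mdh1* at 82.9 ± 2.96, *Slc25a11* at 62.6 ± 6.93, *Got1* at 60.1 ± 4.25, *Slc25a13* at 17.9 ± 0.945 and *Slc25a12* at 8.32 ± 1.04 RPKM (SD, n = 4). At these exon lengths *Got2* and *Mdh1* did not differ beyond their spread, nor did *Slc25a11* and *Got1*. The aspartate-glutamate carriers thus had the lowest mRNA levels per length of the shuttle. The place of *Got2* depends on the length used. Over all annotated transcripts *Got2* has 4824 exonic bases against 2530 here, and *Mdh1* 2567 against 2122. Those lengths would put *Got2* below *Mdh1*. In vehicle-treated MKα3+ cells *Mdh1* stood at 98.8 ± 2.92 RPKM, above *Got2* at 81.0 ± 3.23 RPKM without overlap of their libraries. *Got1* at 73.5 ± 5.52 RPKM and *Slc25a11* at 67.7 ± 5.45 RPKM overlapped. *Slc25a12* at 5.50 ± 0.571 RPKM and *Slc25a13* at 0.131 ± 0.0359 RPKM came last, in the reverse of their order without α3.

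Between the paired carriers, *Slc25a13* made up 65.8% to 70.4% of the summed *Slc25a12* and *Slc25a13* RPKM in vehicle-treated MKα3− cells. With LN332 its share there was 66.5% to 76.0%. The share in MKα3+ cells was 1.59% to 2.86% with vehicle and 3.47% to 5.62% with LN332, values that rest on 8 to 21 *Slc25a13* counts per library. The summed level was 26.2 ± 1.82 RPKM in vehicle-treated MKα3− cells (SD, n = 4) and ran from 16.6 to 24.6 RPKM over the LN332-treated MKα3− libraries. In MKα3+ cells the sum was 5.63 ± 0.587 RPKM with vehicle and 4.58 ± 0.441 RPKM with LN332 (SD, n = 4). With LN332 the sum was 4.56-fold lower in MKα3+ than in MKα3− cells. *Slc25a12* was itself lower where *Slc25a13* was low (log2 fold change -0.41, adjusted p = 0.0151 from limma-voom, with LN332), under the minimum for a call.

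**Figure D3:**
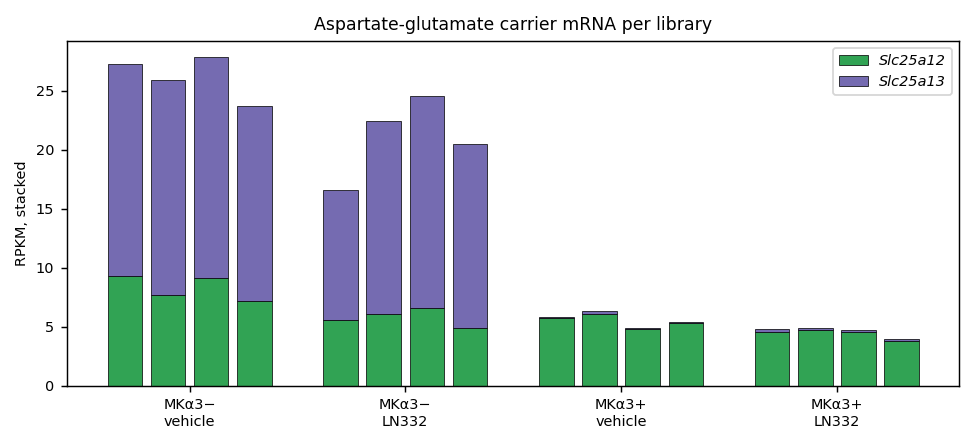
RPKM of *Slc25a12* and *Slc25a13* stacked for each library (vertical axis, from 0; bars are libraries, in replicate order within each group). The stacks reach 16.6 to 27.9 RPKM in MKα3− libraries and 3.92 to 6.30 RPKM in MKα3+ libraries, where nearly all of the stack is *Slc25a12*.

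The cytosolic to mitochondrial balance of the enzymes moved less. The size of each ratio depends on the exon lengths used, while its change between groups does not. The ratio of *Got1* to *Got2* RPKM in LN332-treated cells was 0.781 ± 0.0287 in MKα3− and 0.961 ± 0.0930 in MKα3+ cells (SD, n = 4), without overlap. The exact two-sided permutation test of the log2 ratio gave p = 0.0286, and 0.0857 after Benjamini-Hochberg adjustment over 9 tests of ratios. The ratio of *Mdh1* to *Mdh2* was 0.258 ± 0.0138 and 0.283 ± 0.0123 (SD, n = 4) in the same groups, with overlap (exact permutation p = 0.0571, adjusted 0.0857). None of the 9 tests passed after adjustment, and with 4 against 4 libraries the smallest adjusted value reached was 0.0857. The ratio of *Slc25a13* to *Slc25a12* had that value too, although with LN332 it was 59.7-fold lower in MKα3+ cells, without overlap. Groups of this size leave little room to pass after adjustment, so no conclusion is drawn from the failure.

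The genes around the shuttle were counted in lists in LN332-treated cells, beside the 20.6% called over all genes. Of 6 measured genes listed as other carriers, mostly of glutamate, malate or citrate, 0 were called (median log2 fold change -0.20). *Ucp2*, which carries C4 metabolites and uncouples, had the largest value of this list, 0.84 (SE 0.36, adjusted p = 0.0840 from limma-voom). A list of other routes for cytosolic NADH held 8 genes, among them the glycerol phosphate shuttle genes *Gpd1* and *Gpd2* and the lactate dehydrogenases *Ldha* and *Ldhb*. It also held *Me1* and *Etfdh*, whose enzymes do not reoxidise cytosolic NADH. Of the 8 genes 1 was lower. This was *Aifm2*, an NADH-linked quinone oxidoreductase, at -0.56 (SE 0.13, adjusted p = 0.00296 from limma-voom). None of the 8 was called higher. In the TCA cycle list 2 of 25 genes were higher and 1 lower (median 0.025). *Idh2*, the mitochondrial NADP-dependent isocitrate dehydrogenase, averaged 14.0 ± 2.47 CPM without and 52.3 ± 4.35 CPM with α3 (SD, n = 4; log2 fold change 1.91, SE 0.12, adjusted p = 4.09e-09 from limma-voom). The cytosolic aconitase *Aco1* rose by 0.69 and *Idh3g*, a subunit of NAD-dependent isocitrate dehydrogenase, fell by 0.50, just past the minimum.

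In the glutamate and glutamine list 5 of 20 genes were higher and 2 lower in LN332-treated MKα3+ cells (median log2 fold change 0.15). The plasma membrane carriers of glutamate and aspartate *Slc1a1* and *Slc1a3* rose by 2.19 (SE 0.18, adjusted p = 1.21e-07 from limma-voom) and 2.70 (SE 0.38, adjusted p = 3.59e-05) on the log2 scale. *Slc1a1* had 3.57 ± 1.03 CPM without and 16.1 ± 0.614 CPM with α3 (SD, n = 4). *Slc1a3* stayed low, at 0.427 ± 0.163 and 2.78 ± 0.462 CPM (SD, n = 4). The glutamine carrier *Slc38a1* rose by 2.42 and glutamine synthetase, *Glul*, by 1.58. *Bcat1*, the cytosolic aminotransferase that makes glutamate from branched-chain amino acids, rose by 4.48 (SE 0.69, adjusted p = 9.16e-05 from limma-voom), while the alanine aminotransferase *Gpt* fell by 0.62 and the glutaminase *Gls2* by 0.56.

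In a list of 12 measured genes of aspartate use and asparagine, arginine and nucleotide synthesis, 1 was higher. This was *Asrgl1*, an asparaginase-like enzyme that releases aspartate and does not use it (2.14, SE 0.31, adjusted p = 4.64e-05 from limma-voom). Asparagine synthetase, *Asns*, which uses aspartate, was not called between the lines (0.10, SE 0.21, adjusted p = 0.745). It was higher with LN332 in the mean of both lines (0.56, SE 0.15, adjusted p = 0.0404), and *Sfn*, a keratinocyte marker, was the other list gene called there (0.53, adjusted p = 0.00952) and the one called in MKα3− cells alone (0.77, adjusted p = 0.0352), all from limma-voom.

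**Figure D4:**
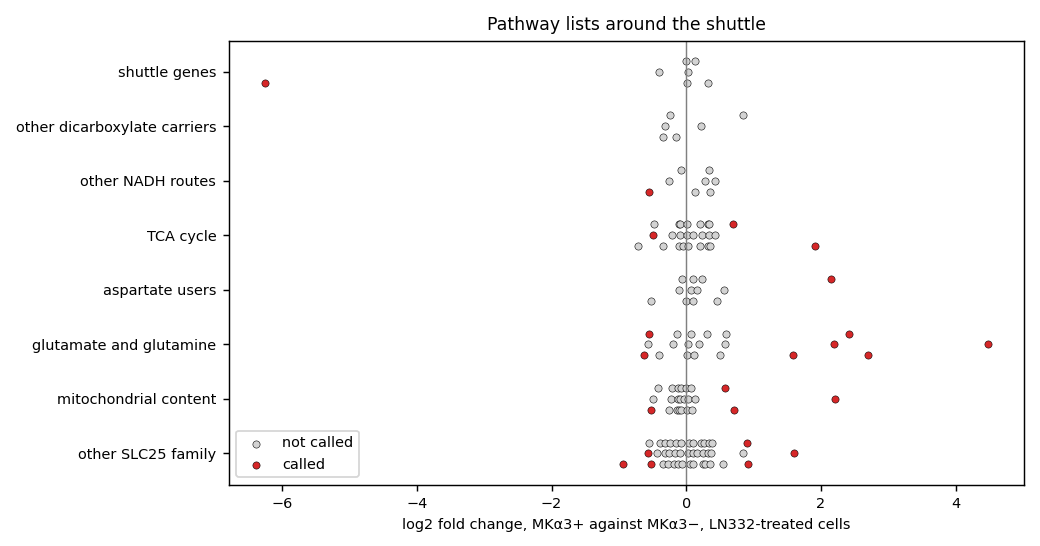
Log2 fold change of every measured gene of each list between MKα3+ and MKα3− cells with LN332 (horizontal axis; rows are lists, points are genes, small vertical offsets only separate points, red is called). *Slc25a13* is the point at -6.26, and the called glutamate and glutamine genes reach 4.48.

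In a list of 23 measured genes of mitochondrial import, respiration and biogenesis 3 were higher and 1 lower, with a median log2 fold change of -0.082. *Ppargc1b*, a coactivator of mitochondrial genes, rose by 2.21 (SE 0.21, adjusted p = 5.78e-07 from limma-voom), the outer membrane channel *Vdac3* by 0.72 and the chaperone *Hspa9* by 0.57, while *Tfam*, which packages mitochondrial DNA, fell by 0.53. Among the 41 other members of the SLC25 carrier family 3 were higher and 3 lower (median 0.040). *Slc25a23*, a calcium-regulated ATP-magnesium and phosphate carrier with EF hands like those of the aspartate-glutamate carriers, rose by 1.60 (SE 0.23, adjusted p = 5.37e-05 from limma-voom) and was the 1 gene called of 3 measured relatives of the members. *Slc25a30* and the ornithine carrier *Slc25a15* rose by 0.91 and 0.90. On the lower side *Slc25a45* fell by 0.94, *Slc25a53* by 0.56 and the peroxisomal carrier *Slc25a17* by 0.52, all far less than *Slc25a13*.

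Within 2 Mb of *Slc25a13* on chromosome 6 the table held 13 measured genes. The nearest was *Sem1*, a proteasome subunit gene 340 kb away, at 167 ± 38.2 CPM in LN332-treated MKα3− and 136 ± 12.3 CPM in MKα3+ cells (SD, n = 4). Its difference was -0.28 on the log2 scale (SE 0.13, adjusted p = 0.0951 from limma-voom). *Dync1i1*, 13.2 kb away, is not among the measured genes. In this window 2 of the 13 measured genes were called in LN332-treated cells, in opposite directions, beside 20.6% of all genes. That count is not above the share over all genes. *Casd1*, a sialic acid O-acetyltransferase gene 1400 kb away, fell by 4.52 (SE 0.45, adjusted p = 8.46e-07 from limma-voom), from 10.6 ± 2.69 to 0.442 ± 0.0635 CPM (SD, n = 4). The lactonase gene *Pon3*, 785 kb away, rose by 4.08 (SE 0.38, adjusted p = 3.43e-07 from limma-voom), from 0.474 ± 0.0988 to 8.19 ± 1.13 CPM (SD, n = 4). Its neighbour *Pon2*, 743 kb away, was at 0.17 (adjusted p = 0.225), and *Asns*, also in this window, was not called. The other 8 lay between -0.33 and 0.52, and none was called.

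**Figure D5:**
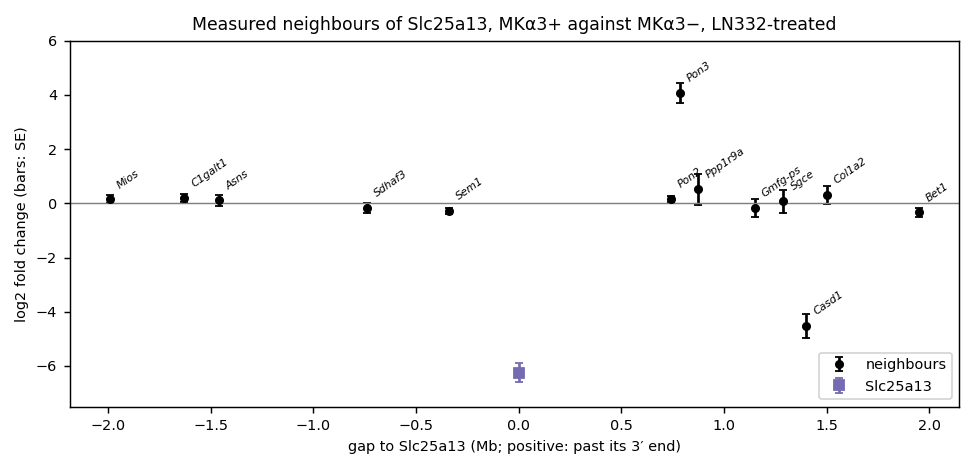
Log2 fold change with SE between MKα3+ and MKα3− cells with LN332 (vertical axis) of the measured genes around *Slc25a13*, against the gap to it (horizontal axis, Mb, positive past its 3′ end). Most neighbours lie near 0, with *Casd1* at -4.52 and *Pon3* at 4.08.

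The genes whose pattern over the 16 libraries was most like that of *Slc25a13* were sought among 11725 genes. These had passed a minimum mean level in the MKα3− libraries, where *Slc25a13* is high. Likeness was measured by the root mean square difference of centred log2 CPM, for which the median gene had 3.27. The nearest were *Fam149a* (0.522), *Crispld1* (0.577), *Pi15* (0.604), *Akip1* (0.631) and *Dsc3* (0.719). All 5 were low in every MKα3+ library. *Akip1*, a protein kinase A interacting protein gene, had 31.5 ± 4.85 CPM in LN332-treated MKα3− and 0.351 ± 0.172 CPM in LN332-treated MKα3+ cells (SD, n = 4). *Dsc3*, a desmosomal cadherin gene of keratinocytes, had 82.8 ± 48.0 and 0.484 ± 0.231 CPM in the same groups (SD, n = 4). These genes were picked for this likeness, so their levels are a description.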

How the data were processed

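Reads had been aligned to mm10 by the authors (Rsubread), and featureCounts had assigned them to Entrez genes. The authors deposited the resulting read counts unnormalized, for 14474 genes and 16 libraries. Whether counting used strand is not given in the sources used here. Genes needed over 0.5 CPM in at least 3 libraries, which removed 0 genes from the deposited counts. The alternative without a filter, listed below, therefore repeats the same fit. TMM factors came from edgeR 4.0.16 and voom weights and contrasts from limma 3.58.1 under R 4.3.3. A single fit held the 16 libraries with a coefficient for each group, and adjusted p-values are from limma-voom over all genes. RPKM are TMM-normalized CPM per kilobase of exon in RefSeq-linked GENCODE M21 transcripts, whose build is mm10. Promoter windows are from RefSeq (GRCm38.p6), which matched 7 of the 7 members.

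The members, lists and tests were chosen with earlier results of these data known. Genes named are the members; list genes called in LN332-treated cells, up to 6 per list by size; list genes called with LN332; the 3 SLC25 genes with the largest calls in each direction; measured neighbours within 2 Mb; and the 5 genes most like *Slc25a13*. Other genes named were chosen after their values were seen. No pair of replicates differed by as little as sampling noise (smallest chi-square per degree of freedom 5.43).

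Replicate numbers are in the sample labels. Same-numbered deviations correlated at 0.61, 0.45, 0.18 and 0.55 for LN332 against vehicle in MKα3+ cells, so the numbers pair the samples there. On simulated data with 14474 genes and log2 fold changes of 1, 74.5% of changed genes were recovered for LN332 in MKα3+ cells, with 8 false calls. Alternatives changed the test (DESeq2 1.42.0, or quasi-likelihood in edgeR), the scaling (size factors of DESeq2, or library size alone), the filter (none, or 10 counts in every library, which keeps 12795 genes), the model (a block for replicate number, quality weights per sample, or a fit of just the groups compared) and the call (no minimum fold), or left out each library in turn.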

Additional observations from a re-analysis of the deposited data

Results flagged for a closer look

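In 3 of 28 groups of 4 libraries 1 library stood apart from the other 3 in a member's level, where chance gives 1.4. All 3 were replicate 1 of a group of MKα3+ cells. *Slc25a11* had 129.79 CPM in vehicle-treated replicate 1, against 110.46 to 111.71 CPM in the others. *Mdh1* had 218.97 CPM in vehicle-treated replicate 1, against 206.11 to 206.93 CPM, and 213.11 CPM in LN332-treated replicate 1, against 189.31 to 192.69 CPM.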

How the results depend on the processing

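*Slc25a13* was called between the lines in LN332-treated cells in every setting that kept it. With at least 10 counts in every library it was removed, which left 0 of the members called there and 1 past the limits in vehicle-treated cells. With no minimum fold change 3 members passed in LN332-treated cells and 1 (*Slc25a12*) in the mean of both lines. For LN332 against vehicle in MKα3− cells 1 member, *Slc25a12*, was called with DESeq2 (log2 fold change -0.52), with library size alone (-0.59), with at least 10 counts in every library (-0.52) and with the replicate block (-0.52, adjusted p = 0.00863), and the number called ranged from 0 to 1 with each library left out. The causes were not tested. Outside LN332 against vehicle in MKα3+ cells not every same-numbered pair correlated above 0.1 (range -0.042 to 0.55), so the numbers were not taken to pair the samples there, although over all comparisons same-numbered deviations averaged 0.233 and others -0.073. In MKα3− cells the block raised the calls over all genes from 44 to 259. It changed no other call of a member.

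Signs turned for differences near 0, none of them called. *Mdh2* between the lines with vehicle (0.00041) was negative with DESeq2 (-0.0077), its size factors (-0.0079), library size alone (-0.013) and quality weights (-0.011), and ran from -0.029 to 0.017 with a library left out. For the comparisons with LN332-treated cells, with library size alone these were *Slc25a11* between the lines with LN332 (-0.0031), *Got1* (-0.044), *Mdh1* (-0.044) and *Mdh2* (-0.050) for LN332 in MKα3− cells, *Got1* (-0.0053) and *Mdh2* (-0.057) in MKα3+ cells, and *Got1* (-0.025) and *Mdh2* (-0.054) in the mean of both lines. With only the groups compared *Slc25a11* turned (-0.0052), with at least 10 counts *Mdh2* between the lines with LN332 (0.0011), and with sample quality weights *Got2* for LN332 in MKα3+ cells (0.0013) and *Mdh2* in the difference of responses (0.0033). With a library left out, the differences between the lines with LN332 ranged from -0.037 to 0.092 for *Slc25a11*, -0.065 to 0.083 for *Got2* and -0.032 to 0.025 for *Mdh2*. The LN332 differences in MKα3− cells ranged from -0.14 to 0.021 for *Slc25a11*, -0.049 to 0.14 for *Got1*, -0.14 to 0.0046 for *Got2* and -0.011 to 0.046 for *Mdh2*, that of *Got2* in MKα3+ cells from -0.039 to 0.022, and the differences of responses from -0.065 to 0.13 for *Got1*, -0.015 to 0.13 for *Got2* and -0.027 to 0.030 for *Mdh2*.

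Calls over all genes for LN332 against vehicle moved by more than 1.5 times with edgeR (4 against 27 in MKα3+ cells), DESeq2 (165 against 44 in MKα3− and 121 in MKα3+ cells), sample quality weights (123 and 454), only the groups compared (1 and 107) and single libraries. The calls in MKα3+ cells fell to 0 without vehicle-treated MKα3+ replicate 2 or 4 or LN332-treated MKα3+ replicate 3 or 4, and those in MKα3− cells ranged from 1 to 150. Depth limits *Slc25a13* in MKα3+ cells, where a library held 8 to 21 counts.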
